A study of Bos taurus with 96 samples.

Results

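Of 24616 genes counted in liver and skeletal muscle of Holstein dairy cows, the 100 with the most marked dip at early lactation in both tissues are described here. They were chosen from the counts: a gene entered if its mean was at least 1 CPM (its count relative to the library total) over the 48 liver libraries and over the 48 muscle libraries, which left 10423 genes, and the within-cow differences of log2(CPM + 1), late pregnancy minus early lactation and mid lactation minus early lactation, were then averaged over 16 cows in each tissue. Each gene so had 4 mean differences, and the 100 genes with the largest value of their smallest difference were taken. All 4 differences were above 0 in 779 genes, 7.47% of those kept, and this includes every one of the 100 members. Because the choice used the comparison of early lactation with both other time-points, the size of the dip is a description and was not tested.

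The study biopsied 16 Holstein cows, 8 of good genetic merit for fertility (Fert+) and 8 of poor genetic merit for fertility (Fert-), at late pregnancy (LP), early lactation just after calving (EL) and mid lactation (ML). Merit was an estimated breeding value for calving interval rather than a single allele, and both groups mixed first and second parity animals. The same animals were sampled at every time-point. Liver came from a percutaneous punch and muscle from a punch of the semitendinosus, and each biopsy gave 1 library of polyadenylated RNA, 96 in all.

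Around calving a dairy cow moves from storing nutrients to exporting them in milk, and intake lags behind demand. In liver and muscle this is the time when insulin is low, fatty acids arrive from adipose tissue and glycogen is drawn down. Desaturases, glycogen-targeting proteins and fatty-acid-handling enzymes are among the genes known to follow insulin and fatty acid supply, while major histocompatibility complex (MHC) class II molecules present peptides on antigen-presenting cells.

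Libraries held between 14966847 and 26358063 counts in liver and between 15279337 and 22018740 in muscle. The 27 liver-secreted protein genes with a known identifier summed to between 194214 and 392150 CPM in liver libraries and to between 10.5 and 353 CPM in muscle libraries, as the tissue labels say. A set of 13 libraries (8 liver, 5 muscle) counted 19 genes that the other libraries barely counted. With time-points pooled, no member had all libraries of this set above or all below the others of the tissue. That check does not show equal levels. The member FBP2 had a liver median of 0.136 CPM in the set against 5.56 CPM in the others. For the member BOLA-DQB in muscle the medians were 7.08 and 19.5 CPM. No label names this set, which was read from the counts alone. All 5 muscle libraries of the set were from Fert- cows. In liver it held 2 Fert+ libraries at each time-point, and 1 Fert- library at EL and 1 at ML. In muscle the 20 most abundant genes took a median of 30.2% of counts at EL, against 39.6% at LP and 41.6% at ML, so the remaining genes together took a larger share of the library at EL. The median muscle difference over the 10423 genes was -0.36 (LP minus EL) and -0.39 (ML minus EL) in log2(CPM + 1), against -0.04 and 0.02 in liver, and with TMM-scaled library sizes the muscle medians were -0.05 for both. A gene that fell at EL in muscle CPM thus went against the shift of most genes.

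Median differences over the 100 members were 0.41 in liver for LP minus EL, 0.65 in liver for ML minus EL, 0.52 in muscle for LP minus EL and 0.60 in muscle for ML minus EL, on the log2(CPM + 1) scale. Relative to the median of all kept genes the same values were 0.45, 0.63, 0.87 and 0.99. The largest of the 4 differences reached 1 in 31 members and 2 in 6, and the smallest reached 0.5 in 13. Liver against LP was the smallest of the 4 in 55 members, so this difference set the membership of more genes than any other. Both dips were deeper in liver in 25 members and deeper in muscle in 40, and the other 35 were mixed.

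Cows shared the muscle dip more evenly than the liver dip. In muscle, EL was below ML in 16 of 16 cows for 30 members and below LP in 16 of 16 cows for 23 members. In liver the same held for 4 members against ML and for 0 against LP. Over all kept genes these shares were 1.26% and 0.72% in muscle and 0.345% and 0% in liver. Against LP in liver, EL was lower in a median of 11 of 16 cows per member, and in as few as 7. That median was 13 in liver against ML, and 14 and 15 in muscle against LP and ML. Libraries of the time-points still overlapped in nearly every member: the EL libraries lay wholly below the ML libraries in 8 members in muscle and in 0 in liver, beside 0.192% and 0% of kept genes, and wholly below the LP libraries in 1 in muscle, beside 0.048%. The choice of members used these differences. ML was higher than LP in 84 members in liver and in 65 in muscle, compared with 64.9% and 39.02% of all kept genes.

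**Figure D1:**
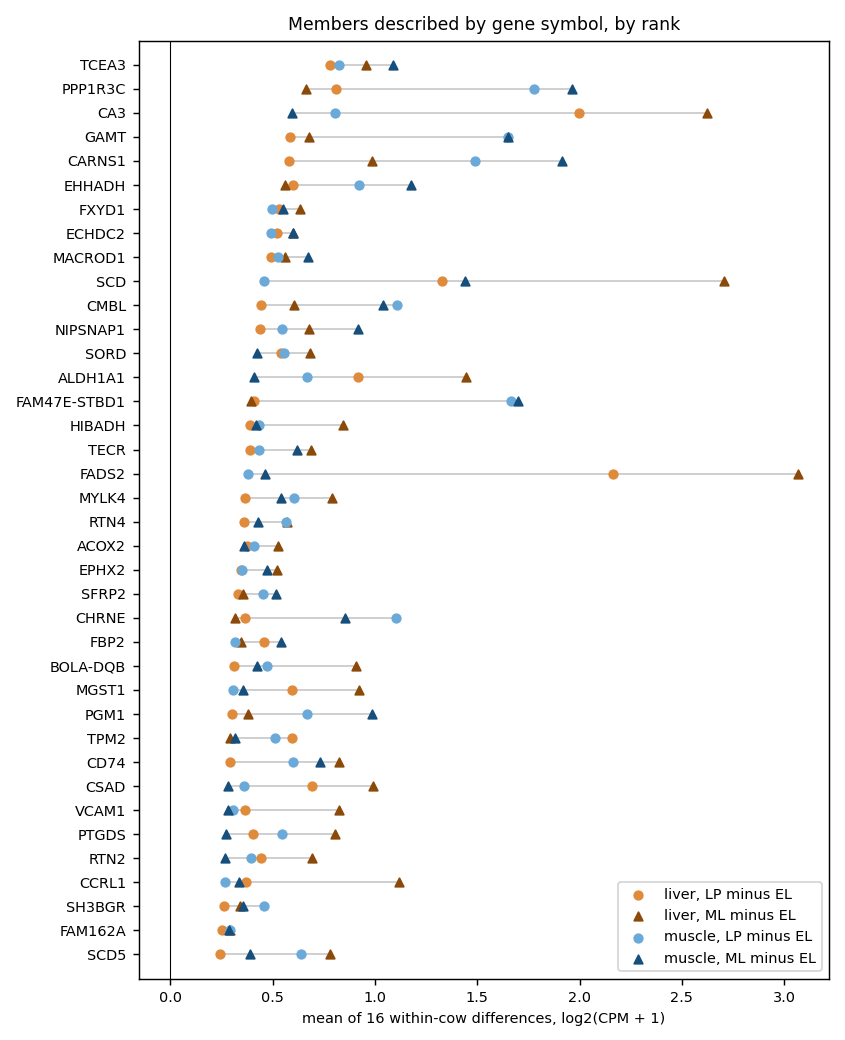
Mean over 16 cows of the within-cow difference in log2(CPM + 1) for the members described by gene symbol, in order of rank; circles are LP minus EL, triangles ML minus EL, orange and brown liver, blue muscle. FADS2, SCD and CA3 reach the largest liver values (3.07, 2.71 and 2.62, ML minus EL), whereas PPP1R3C, CARNS1 and FAM47E-STBD1 lie farthest right in muscle.

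A symbol was known for 39 of the 100 members, since names were taken from gene lists of the study that hold DE or abundant genes, and the other 61 are identified by Ensembl number alone. The member with the largest smallest difference was one of these, ENSBTAG00000010284. Its lowest, median and highest muscle levels were 67.3, 96.7 and 144 CPM at LP, 9.55, 37.2 and 78.5 CPM at EL and 79.7, 118 and 154 CPM at ML, and every EL library lay below every ML library. In liver its levels were 38.02, 67.9 and 166 CPM at LP, 4.04, 56.4 and 103 CPM at EL and 79.9, 126 and 143 CPM at ML. The liver libraries overlapped, and EL was lower in 11 of 16 cows against LP and in 16 of 16 against ML. Members are given below by role. Symbol members that were neither among the first 25, nor in a fixed gene list, nor of smallest p in a genotype test were named after their values were seen.

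Among glycogen and sugar genes, PPP1R3C, FAM47E-STBD1 and PGM1 dipped more in muscle, while SORD and FBP2 were mixed. PPP1R3C, which brings protein phosphatase 1 to glycogen and so favours its synthesis, had lowest, median and highest muscle levels of 107, 233 and 383 CPM at LP, 28.5, 61.8 and 211 CPM at EL and 113, 271 and 382 CPM at ML. EL was below both other time-points in 16 of 16 cows, with mean differences of 1.78 ± 0.70 and 1.96 ± 0.79 (SD, n = 16 cows) in log2(CPM + 1), folds of 3.43 and 3.89. In liver its EL median of 69.4 CPM stood below 138 CPM at LP and 130.2 CPM at ML, but single libraries ran from 3.38 to 496 CPM at LP and the differences of 0.81 ± 1.996 and 0.66 ± 1.25 were smaller than their SD. FAM47E-STBD1, a locus whose annotated read-through holds the glycogen-binding protein STBD1 and whose reads could not be split between its parts, fell in muscle from 140.4, 229 and 288 CPM at LP to 18.4, 77.1 and 140.2 CPM at EL and stood at 154, 236 and 276 CPM at ML. Every muscle EL library of this locus lay below every LP and every ML library.

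PGM1, which interconverts glucose 1-phosphate and glucose 6-phosphate, had muscle levels of 2159, 2847 and 3540.3 CPM at LP, 964, 1841 and 3199 CPM at EL and 3195, 3464 and 4239 CPM at ML. Its EL libraries lay below ML in 16 of 16 cows, while its liver differences of 0.30 ± 0.88 and 0.38 ± 0.73 were small. SORD, the sorbitol dehydrogenase that makes fructose, was mainly counted in liver, with medians of 349.7 CPM at LP, 259 CPM at EL and 393 CPM at ML, and its muscle medians were 3.77, 2.22 and 3.36 CPM in the same order. FBP2, the muscle form of fructose bisphosphatase, had muscle medians of 497 CPM at LP, 432 CPM at EL and 585 CPM at ML. In liver FBP2 was low and scattered, from 0.0877 to 23.9 CPM at EL, and EL was lower in 9 of 16 cows against LP and 10 of 16 against ML.

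Of the fatty acid desaturases, FADS2 showed the deepest liver dip of all members in both comparisons, and SCD5 one close to the threshold against LP. FADS2, which introduces a double bond into polyunsaturated fatty acids, had lowest, median and highest liver levels of 37.8, 934 and 1770.1 CPM at LP, 10.2, 186 and 1755 CPM at EL and 151, 1679 and 2347 CPM at ML. The EL libraries spanned nearly the whole range of the gene, and the mean differences of 2.16 ± 3.26 and 3.07 ± 2.63 had SDs of similar size, with EL lower in 13 and 14 of 16 cows. In muscle FADS2 was low, with medians of 7.44, 5.45 and 8.14 CPM at LP, EL and ML.

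SCD, the stearoyl-CoA desaturase that makes oleic acid, had liver levels of 1.26, 26.01 and 142 CPM at LP, 1.66, 11.8 and 99.5 CPM at EL and 8.82, 117 and 186 CPM at ML. It stood out by its rise to ML: the liver difference was 2.71 ± 1.995 for ML minus EL and 1.33 ± 2.63 for LP minus EL, and in muscle 1.44 ± 0.82 and 0.46 ± 0.67. Its muscle medians were 23.4 CPM at LP, 17.1 CPM at EL and 44.03 CPM at ML, and EL was lower in 15 of 16 cows against ML and in 11 of 16 against LP. SCD5, a second stearoyl-CoA desaturase, was the last gene to enter, with a smallest difference of 0.246. TECR, the reductase that ends each round of fatty acid elongation, had medians of 94.4, 73.8 and 121 CPM in liver and 91.4, 66.0 and 107 CPM in muscle at LP, EL and ML.

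**Figure D2:**
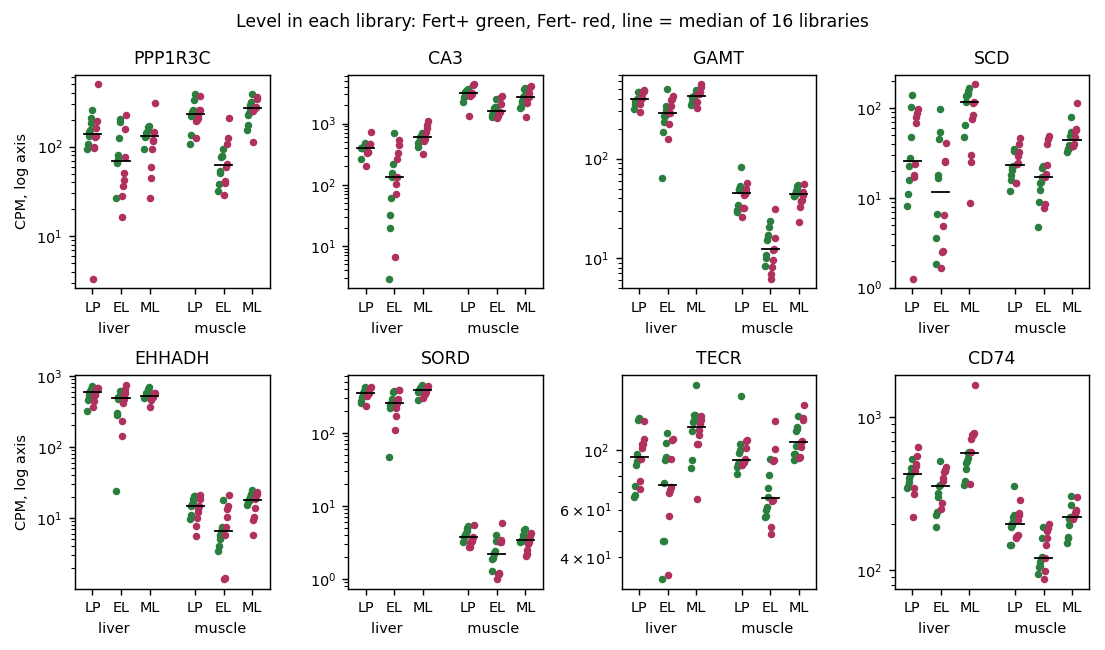
Level of 8 members in each library on a log CPM axis, by tissue and time-point; green points are Fert+ cows, red points Fert- cows, and the line is the median of 16 libraries. EL medians lie below those of LP and ML in all 8 genes in both tissues, and in muscle EL was the lower in 16 of 16 cows for PPP1R3C and GAMT.

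Lipid synthesis genes that are not members were tested between time-points (edgeR quasi-likelihood test with Benjamini-Hochberg adjustment over all genes tested). Among all genes tested, 0.849% were down-regulated at EL against LP and 18.4% against ML in liver, while muscle had 25.1% and 28.6%. A replicate block for the cow made these shares 1.16%, 21.1%, 26.6% and 31%. From a list of 24 fatty acid and triglyceride synthesis genes, 8 non-members could be tested in liver: 0 were down-regulated against LP and 5 against ML, with 1 up-regulated against ML. The fatty acid elongase ELOVL5 was the one up-regulated, by 0.76 ± 0.21 (log2 fold change ± SE, adjusted p = 0.0042), and ACSS2, which activates acetate, fell by 1.64 on the log2 scale at EL relative to ML (adjusted p = 0.0013). In muscle 6 were tested: 0 were down-regulated and 2 up-regulated against LP, and 1 each against ML. LPIN1, the phosphatidate phosphatase of triglyceride synthesis, ran opposite to the members there, up-regulated at EL by 1.77 ± 0.24 against LP and 2.60 ± 0.25 against ML (adjusted p = 4.3e-08 and 4.1e-12). With the block, 6 in liver were down-regulated against ML, and in muscle 2 of 7 were down-regulated in each comparison.

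Of 6 sterol synthesis non-members, 0 were down-regulated in liver against LP and 5 against ML, and in muscle 4 against LP and 3 against ML. HMGCS1, which commits acetyl-CoA units to the pathway, fell by 1.19 on the log2 scale in liver at EL relative to ML (adjusted p = 0.0085). These lists hold only genes whose symbol was known, and such genes were DE or abundant in the study.

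Members of fatty acid oxidation belonged to the peroxisome and mitochondrion. EHHADH, the peroxisomal bifunctional enzyme, had lowest, median and highest liver levels of 320.3, 589 and 723 CPM at LP, 24.1, 491 and 753 CPM at EL and 365, 517 and 697 CPM at ML. One EL library stood far below the others, and in liver EL was lower in 11 of 16 cows in both comparisons. In muscle EHHADH had medians of 14.6, 6.61 and 18.1 CPM at LP, EL and ML, and EL was below ML in 15 of 16 cows. ACOX2, the peroxisomal oxidase of branched fatty acids and bile acid precursors, had a liver median of 494 CPM at EL against 495 CPM at LP. Its lowest EL library was at 31.9 CPM against 359 CPM for the lowest LP library, the mean liver difference was 0.37 ± 1.14, and EL was lower in 8 of 16 cows. ECHDC2, an enoyl-CoA hydratase-like mitochondrial protein, and EPHX2, the soluble epoxide hydrolase, had liver medians of 122, 89.8 and 125 CPM and of 428, 373 and 447 CPM. From the separate list of fatty acid oxidation and ketogenesis genes, which holds 0 members, 0 of 15 tested were down-regulated in liver against LP and 2 against ML with 6 up-regulated, and in muscle 2 of 14 were down-regulated and 7 up-regulated against LP. With the replicate block 6 of 16 were down-regulated and 7 up-regulated in muscle against ML, compared with 2 and 6 of 14 without it.

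Enzymes of creatine, carnosine, taurine and valine metabolism formed another group. GAMT, which makes creatine in its last step, had muscle levels of 25.9, 44.9 and 83.1 CPM at LP, 6.21, 12.2 and 30.9 CPM at EL and 23.1, 43.7 and 55.2 CPM at ML. EL was lower in 16 of 16 cows in both comparisons, with differences of 1.65 ± 0.64 and 1.65 ± 0.67 and a fold of 3.14 for each. In liver, where GAMT had medians of 396, 289 and 431 CPM, the differences were 0.58 ± 0.80 and 0.68 ± 0.74. CARNS1, which joins beta-alanine and histidine to carnosine, had muscle medians of 29.3, 13.8 and 41.9 CPM at LP, EL and ML, and EL libraries ran from 1.92 to 28.3 CPM. CSAD, which makes the taurine precursor hypotaurine, had liver medians of 47.7, 27.4 and 41.5 CPM, and EL was below LP in 8 of 16 cows. HIBADH, a dehydrogenase of valine breakdown, was lower at EL in 16 of 16 cows against LP in muscle, although its muscle medians of 129, 98.5 and 135 CPM lay close together.

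Among enzymes that clear aldehydes and xenobiotics, ALDH1A1 and MGST1 dipped more in liver and CMBL more in muscle. ALDH1A1, which oxidises retinaldehyde, had lowest, median and highest liver levels of 1117, 2871 and 5374 CPM at LP, 69.5, 1558 and 4842 CPM at EL and 2563, 3931 and 5045 CPM at ML. The ML libraries began at 2563 CPM, whereas EL libraries covered the range from the lowest to nearly the highest. MGST1, a membrane glutathione transferase, had liver medians of 382, 266 and 462 CPM at LP, EL and ML, and CMBL, a hydrolase that activates some prodrugs, had muscle medians of 101, 46.96 and 94.2 CPM and liver medians of 248, 182 and 253 CPM. Among 15 non-members of drug and steroid metabolism tested in liver, 1 was down-regulated and 1 up-regulated against LP, and 7 were down-regulated against ML. The cytochrome P450 CYP1A2 fell by 0.78 ± 0.21 relative to LP (adjusted p = 0.037), and the cytochrome P450 CYP2E1 fell by 1.09 and the alcohol dehydrogenase ADH4 by 1.12 relative to ML (adjusted p = 0.00086 and 8.7e-05). With the replicate block 3 were down-regulated in liver against LP. In muscle 6 of this list could be tested, of which 0 were down-regulated against LP and 1 against ML, with 1 up-regulated against ML, and with the replicate block 6 of 11 were down-regulated against ML.

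Several members are known from muscle. CA3, the carbonic anhydrase of slow muscle that is also made by liver, had muscle levels of 1347, 3104 and 4386 CPM at LP, 1219.6, 1624 and 2837 CPM at EL and 1263, 2701 and 4151 CPM at ML. In liver its levels were 200.3, 406 and 741 CPM at LP, 2.94, 135 and 689.7 CPM at EL and 313, 610.2 and 1112 CPM at ML. The liver dip was the larger, 1.995 ± 2.22 and 2.62 ± 2.11 against 0.80 ± 0.47 and 0.60 ± 0.49 in muscle, and 10 of 16 liver EL libraries lay below every LP library. TCEA3, a transcription elongation factor, had muscle medians of 219, 123 and 259 CPM and liver medians of 8.69, 5.96 and 10.7 CPM at LP, EL and ML, and in muscle all EL libraries lay below all ML libraries. TPM2, a tropomyosin of slow fibres, had muscle medians of 14940.5, 11361 and 12376 CPM and liver medians of 14.9, 8.02 and 11.3 CPM. SH3BGR, RTN2, MYLK4 and CHRNE, the epsilon subunit of the acetylcholine receptor at the neuromuscular junction, had liver EL medians of 1.52, 4.40, 1.27 and 3.53 CPM.

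Markers of skeletal muscle were read in liver beside these genes. The 30 markers that are not members summed to between 32.2 and 64.3 CPM at LP, 21.8 and 58.4 CPM at EL and 30.9 and 103 CPM at ML in liver, and 21 of the 30 stayed under 1 CPM in every liver library. The mean liver level of the fibre genes ACTA1 and MYH1 at EL was 0.016 CPM and 0 CPM. Of 8 markers tested in liver, 0 were down-regulated against LP and 3 against ML. In muscle the same 30 markers summed to between 253220 and 324399 CPM at LP, 101892 and 286548 CPM at EL and 304856 and 366613 CPM at ML, and 25 of 30 were down-regulated at EL in each comparison, with 1 up-regulated. ACTA1 fell by 1.94 and 2.36 on the log2 scale (adjusted p = 5.5e-08 and 4.3e-10). The part of these fibre genes in the muscle dips was not tested, and in biopsies fewer cells of a type and less RNA per cell cannot be told apart.

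The antigen-presentation members were CD74 and BOLA-DQB, whose liver differences were 0.29 and 0.31 for LP minus EL and 0.82 and 0.91 for ML minus EL. CD74, the invariant chain that guides MHC class II molecules, had liver levels of 222, 425 and 636 CPM at LP, 192, 356 and 517 CPM at EL and 359, 586 and 1633 CPM at ML. In muscle CD74 had levels of 145, 200.3 and 352 CPM at LP, 87.6, 120.1 and 199 CPM at EL and 150.4, 222 and 305 CPM at ML, and EL was below ML in 16 of 16 cows. BOLA-DQB, a class II beta chain, had liver medians of 75.4, 49.3 and 96.0 CPM and muscle medians of 19.5, 13.6 and 20.8 CPM, but bovine class II genes are near-identical copies among which reads may have been divided. Of 9 non-members of the antigen-presentation list, 0 were down-regulated in liver against LP and 4 against ML, and 5 and 6 in muscle. With the replicate block 9 of 9 were down-regulated against ML in liver and in both comparisons in muscle, and 0 against LP in liver. In CPM the 9 summed in muscle to medians of 708 at LP, 725 at EL and 715 at ML, without the TMM scaling that the test uses. BOLA-DRA, the class II alpha chain, fell by 0.81 ± 0.14 in liver relative to ML (adjusted p = 4.1e-05) and by 0.87 ± 0.16 in muscle relative to LP (adjusted p = 1.1e-05).

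Macrophage and Kupffer cell markers, 6 with a known identifier, summed to between 441 and 1460 CPM at LP, 460.2 and 1426 CPM at EL and 715 and 2360.3 CPM at ML in liver. In liver 0 of 6 were down-regulated against LP and 4 against ML. In muscle they summed to at most 59.4 CPM in any library, and 0 of 4 were down-regulated against LP and 1 against ML, with 1 up-regulated. Their part in the dips of CD74 and BOLA-DQB was not tested. Of the adipocyte markers, 10 that are not members summed in muscle to a median of 984 CPM at LP, 585 CPM at EL and 1139.8 CPM at ML, beside the muscle dip of SCD, and 1 of 9 was down-regulated against LP and 4 against ML.

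The remaining symbol members fit none of these groups. FXYD1, a regulator of the sodium pump, and MACROD1, a mitochondrial hydrolase of ADP-ribose, were each lower at EL in at least 13 of 16 cows in all 4 comparisons. RTN4, which shapes the endoplasmic reticulum, had muscle medians of 1110.2, 825 and 1052 CPM at LP, EL and ML, and NIPSNAP1, a mitochondrial matrix protein, had liver medians of 439, 380.3 and 517 CPM. VCAM1, an adhesion molecule for leukocytes, and PTGDS, a prostaglandin D synthase, had liver EL medians of 36.5 and 9.85 CPM against 72.8 and 15.8 CPM at ML. Mean liver differences of VCAM1 in Fert+ and Fert- cows were 0.48 and 0.25 for LP minus EL, against 0.75 and 0.91 for ML minus EL. For PTGDS they were 0.58 and 0.23, against 0.72 and 0.89. The atypical chemokine receptor CCRL1 had liver medians of 3.97, 2.45 and 7.77 CPM at LP, EL and ML. FAM162A, a mitochondrial protein, differed by between 0.26 and 0.29 in all 4 comparisons. SFRP2, a secreted Wnt antagonist, was barely counted in liver, with a median of 0.175 CPM at EL, and it did not reach the 1 CPM floor with TMM-scaled library sizes.

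Just inside the threshold, ENSBTAG00000021960, ENSBTAG00000021291 and SCD5 had smallest differences of 0.249, 0.247 and 0.246. Just outside it, ENSBTAG00000012416, ENSBTAG00000013096 and the class II gene BOLA-DMA had 0.245, 0.244 and 0.241.

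Cows differed widely in the liver dip. The median over members of LP minus EL in liver ran from -0.68 in Fert- cow 426 to 2.09 in Fert+ cow 3847, with 13 of 16 cows above 0. In cow 426 the difference was above 0 in 5 of 100 members, and in cow 3847 in 97. For ML minus EL in liver the medians ran from -0.25 to 2.10, with 14 of 16 cows above 0. In muscle all 16 cows were above 0 in both comparisons, from 0.058 to 1.14 for LP minus EL and from 0.26 to 1.11 for ML minus EL. The choice of members used the means of these differences in the same cows, so medians above 0 were favoured by it. Between liver and muscle the 16 cow medians had a Pearson correlation of -0.02 for LP minus EL and 0.27 for ML minus EL, each pair of points sharing the cow. Without cow 3847, 78 of the 100 members were retained and the median liver difference from LP was 0.33 in place of 0.41.

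**Figure D3:**
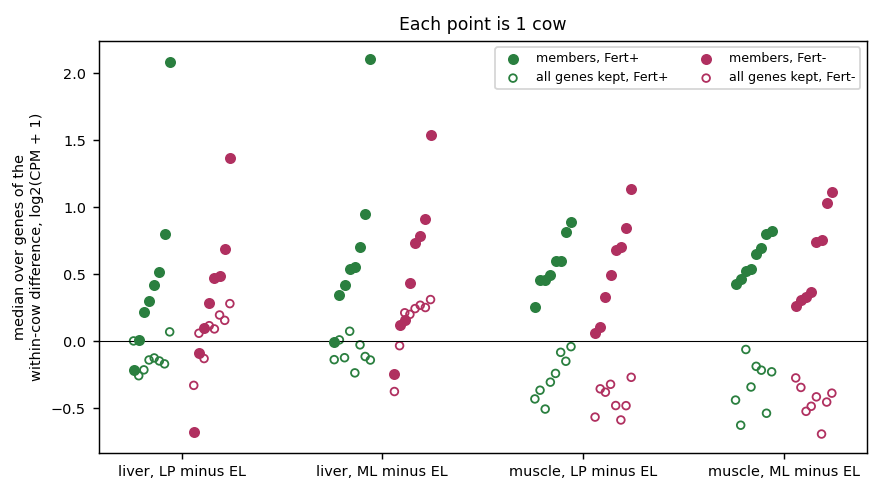
Median within-cow difference in log2(CPM + 1) for each of 16 cows, over the 100 members (filled) and over the 10423 kept genes (open); green is Fert+, red is Fert-. In muscle all 16 filled points lie above 0 while the kept genes lie below it, and in liver the filled points spread from -0.68 to 2.10. The members were chosen by the means of these same differences.

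The EL liver library of cow 3847, one of the set of 13 libraries that counted 19 further genes, also differed in other genes. Its 15 chaperone and endoplasmic reticulum stress genes summed to 28509 CPM, the highest of 16 EL liver libraries, whose median was 6330 CPM. The next was Fert- cow 164 with 13044.5 CPM, whose median member difference of 1.37 in liver (LP minus EL) was also the next highest. Both libraries also had the highest shares of counts in their 20 most abundant genes, 45.8% in cow 164 and 40.04% in cow 3847. Their liver-secreted protein sums were the highest as well, 392150 and 327871 CPM. Over all kept genes the median liver difference (LP minus EL) was 0.28 in cow 164 and 0.07 in cow 3847. In the other EL liver libraries of the set, from Fert+ cow 33 and Fert- cow 419, the chaperone genes summed to 6472 and 6746 CPM. In that cow 3847 library the macrophage and Kupffer cell markers summed to 460.2 CPM and the skeletal muscle markers to 21.8 CPM, the lowest of the EL liver libraries in both cases. Of the 15 chaperone genes, 8 were up-regulated at EL in liver against LP and 14 against ML, and with the replicate block 0 and 14. The part of this library state in the liver dip was not tested.

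To see whether the dip recurred in animals that the choice did not use, the rule was applied to the 8 cows of 1 genotype and the chosen genes were read in the 8 cows of the other. Of 100 genes chosen in Fert+ cows, 68 of them members, 75 had all 4 differences above 0 in Fert- cows, where 7.2% of all kept genes did. Of 100 genes chosen in Fert- cows, 63 of them members, 82 had all 4 above 0 in Fert+ cows, compared with 8.2% of kept genes. Muscle carried most of the tested calls (edgeR quasi-likelihood test). Against LP in muscle, 78 of 100 genes were down-regulated at EL in Fert- cows and 82 of 100 in Fert+ cows, beside 18.2% and 16.3% of all genes tested. Against ML in muscle, 87 and 83 of 100 were down-regulated, beside 21.8% and 19.1%. With the replicate block these counts were 85 and 87 against LP, beside 20.7% and 18.7%, and 93 and 88 against ML, beside 25.2% and 21.6%. These tests scale libraries by TMM, whereas the rule used library totals. With library totals alone the counts were 45 and 63 against LP, and 60 and 63 against ML. In Fert- cows against LP, 544 of 12329 genes tested were then down-regulated.

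In liver the held-out calls were fewer. Against ML, 19 of 100 genes were down-regulated at EL in Fert- cows and 36 of 99 in Fert+ cows, beside 2.25% and 11.6% of all genes tested. Against LP, 0 of 100 were called by edgeR in Fert- cows, where 0% of all genes were, and 14 of 100 had an unadjusted p under 0.05 with a lower level at EL, beside 1.59% of all genes. In Fert+ cows 3 of 99 were down-regulated against LP, beside 1.34%, and 10 of 100 with the replicate block, beside 2.17%. With the block 22 of 100 in Fert- cows (2.55%) and 49 of 100 in Fert+ cows (14.4%) were down-regulated against ML. The median log2 fold change of the chosen genes in liver against LP was -0.22 in Fert- cows and -0.40 in Fert+ cows. The liver dip from late pregnancy thus had the same direction in both genotypes, but most chosen genes were not called. Whether the number of cows limited these calls was not tested. With all cows, 115 of 13545 genes were down-regulated at EL against LP in liver. The Fert+ cows include cow 3847, whose median member difference in liver was 2.09 (LP minus EL). The held-out genes were not read without this cow.

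**Figure D4:**
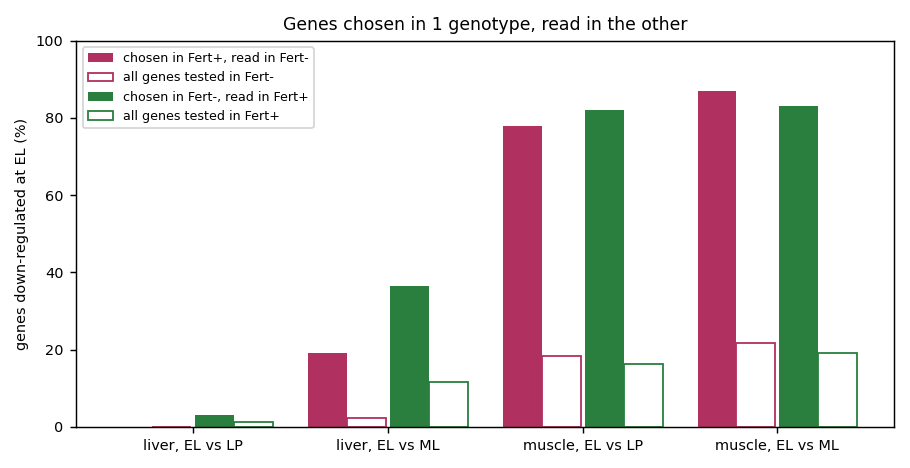
Percent of genes down-regulated at EL in 8 cows of the genotype that was not used to choose them (filled) and of all genes tested in the same cows (open), for 4 comparisons; red is read in Fert-, green in Fert+. Filled bars reach 78% to 87% in muscle, but 0% and 3.03% in liver against LP.

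Genotype was not used by the rule, so Fert+ and Fert- could be compared at each time-point. With the edgeR quasi-likelihood test 0 members were DE between genotypes in any of the 6 fits, in which 1 of 12035 genes was DE in muscle at EL (0.00831%) and 0 in the other 5. At an unadjusted p under 0.05 there were 4 of 100 members in liver at LP, 7 of 99 at EL and 11 of 100 at ML, beside 6.54%, 11.7% and 12.4% of all genes tested. In muscle there were 9 of 100 at LP, 14 of 99 at EL and 19 of 100 at ML, beside 6.69%, 11.8% and 7.65%, and each of these was higher in Fert+. With the set of 13 libraries as a term, which in muscle were all Fert-, there were 9, 11 and 21 of 100 members, beside 7.03%, 9.81% and 6.98%. Of these, 8, 11 and 20 were higher in Fert+. DESeq2 called 0 members in liver, beside 0.0106%, 0.0876% and 0.45% of genes with an adjusted p at LP, EL and ML. In muscle it called 1 of 100 at LP, 4 of 100 at EL and 2 of the 76 with an adjusted p at ML, beside 0.18%, 0.943% and 0.15%.

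Most members had a higher fitted level in Fert+ muscle, 78 of 100 at LP, 71 of 99 at EL and 73 of 100 at ML, where 50.6%, 46.3% and 47.4% of all genes did. The median log2 difference of the members was 0.11, 0.16 and 0.12. In liver at EL 80 of 99 members were lower in Fert+, with a median of -0.23, where 49.8% of all genes were lower. Without cow 3847, 67.7% of the members were lower in Fert+ in that fit, with the member list still the one chosen with this cow. The choice used the EL libraries of these same cows, and members may vary together. Such counts are therefore not independent of the choice and were not tested.

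ECHDC2 in muscle at EL had the smallest p of all members. Its lowest, median and highest levels at EL were 14.8, 19.2 and 32.5 CPM in Fert+ cows and 5.76, 9.38 and 12.02 CPM in Fert- cows, and the groups of 8 did not overlap, as in 0.0748% of genes tested. The difference was 1.32 ± 0.23 on the log2 scale (adjusted p = 0.091 by the edgeR quasi-likelihood test), and over 5 alternative fits the adjusted p ran from 9.6e-05 with DESeq2 to 0.32. At LP its levels were 18.8, 22.4 and 38.2 CPM in Fert+ and 11.4, 15.6 and 24.2 CPM in Fert-, and at ML 19.7, 24.3 and 42.9 CPM in Fert+ and from 11.8 to 26.2 CPM in Fert-. All 8 Fert+ cows lay above the Fert- median at each time-point, with overlap at LP and ML, and adjusted p values of 0.51 and 0.49 by edgeR (0.029 by DESeq2 at ML). In liver ECHDC2 differed by -0.12 ± 0.28 at EL.

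MACROD1 at EL had muscle levels of 372, 497 and 622 CPM in Fert+ and 249, 307 and 404 CPM in Fert-, a difference of 0.84 ± 0.19 (adjusted p = 0.20 by edgeR, 0.0097 by DESeq2). TPM2 at EL differed by 1.01 ± 0.27 and CHRNE by 1.51 ± 0.42 (adjusted p = 0.20 and 0.21 by edgeR, 0.025 and 0.028 by DESeq2). CARNS1 at ML had levels of 36.7, 48.7 and 57.3 CPM in Fert+ and 26.8, 34.3 and 43.7 CPM in Fert-, a difference of 0.54 ± 0.10 (adjusted p = 0.34 by edgeR, 0.0074 by DESeq2). CHRNE at LP had levels of 9.19, 13.8 and 41.5 CPM in Fert+ and 6.09, 7.92 and 13.2 CPM in Fert-, with an adjusted p of 0.38 by edgeR and 0.042 by DESeq2. In all of these the 8 Fert+ cows lay above the Fert- median, and the groups overlapped.

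**Figure D5:**
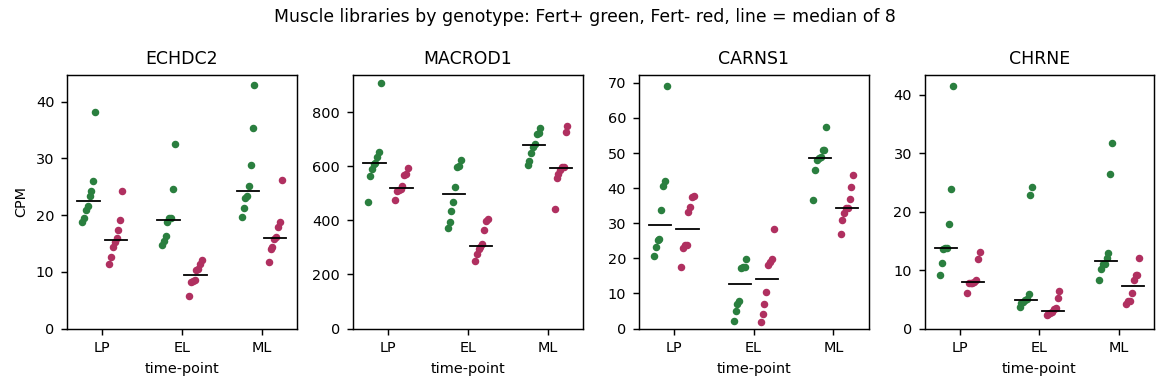
Muscle levels in CPM of 4 members by time-point; green points are 8 Fert+ cows, red points 8 Fert- cows and lines are group medians. For ECHDC2 at EL the lowest Fert+ cow (14.8 CPM) lies above the highest Fert- cow (12.02 CPM), while the other groups shown overlap.

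In liver the members of smallest p were SFRP2 at LP, ENSBTAG00000011338 at EL and CD74 at ML, all lower in Fert+. ENSBTAG00000011338 at EL had levels of 2.77, 5.95 and 8.62 CPM in Fert+ and 4.38, 9.68 and 13.8 CPM in Fert-, a difference of -0.88 ± 0.24 (adjusted p = 0.38, edgeR). CD74 at ML had levels of 359, 508 and 595 CPM in Fert+ and 365, 761 and 1633 CPM in Fert-, a difference of -0.59 ± 0.18 (adjusted p = 0.25, edgeR). SFRP2 at LP had levels of 0.0411, 0.203 and 1.18 CPM in Fert+ and 0.187, 1.08 and 8.57 CPM in Fert- (adjusted p = 0.73, edgeR).

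The dip itself was compared between genotypes by the genotype by time-point interaction. In edgeR 0 members were called in either tissue, and 0 genes at all were, of 13815 tested for liver and 12675 for muscle. At an unadjusted p under 0.05 liver had 3 members and muscle 4, beside 6.6% and 6.76% of all genes. The replicate block gave 6 and 8, beside 7.6% and 8.89%, and still 0 called. In liver the fitted dip from LP was deeper in Fert+ in 77 of 100 members, where 51.2% of all genes lay that way, and in 65 without cow 3847. For muscle it was deeper in Fert+ in 39 and shallower in 61, where 51.7% of all genes were deeper. The members were chosen on dips in these same cows, cow 3847 included, so these counts are not independent of the choice. MACROD1 and ECHDC2 had the smallest p values in muscle with the block (adjusted p = 0.27 and 0.22). Their fitted muscle dips were shallower in Fert+, by 0.57 and 0.74 against LP on the log2 scale.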

How the data were processed

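RNA-seq was performed on polyadenylated RNA from liver and muscle biopsies of 16 cows at 3 time-points (Illumina TruSeq v2, which does not mark strand, so overlapping and antisense genes cannot be told apart). Per the labels, the authors used CASAVA 1.8, STAR and featureCounts on UMD3.1, and deposited raw counts per Ensembl gene for each library. Another 96 columns of whole-series tables carry no sample names and were not used.

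Groups came from the labels. Members and lists were chosen with earlier results of these data known. The rule for named members took those with a symbol among the first 25, in a fixed list (at most 4 a list) or of smallest p in a genotype or interaction fit. Other symbol members, ENSBTAG00000010284 and ENSBTAG00000011338 were named after their values were seen. The 3 genes just inside and outside the threshold, and up to 3 abundant non-members a list, were also named. Symbols came from the study's supplementary gene lists.

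Counts were tested with edgeR 4.0.16 (glmQLFit, TMM, filterByExpr, adjusted p under 0.05) in R 4.3.3, with DESeq2 1.42.0 as an alternative, and the procedures were tested on simulated data. Member values were computed in Python 3.11.15 with pandas 2.3.3 and a pseudocount of 1, so folds of low genes are understated. Libraries held 14966847 to 26358063 counts. Labels give the cow, so libraries pair by animal: residuals of the same cow correlated above 0.1 in 39 of 48 pairs in liver and 42 of 48 in muscle. Alternatives were other scalings, filters, pseudocounts, a cow block, a term for the set of 13 libraries that counted 19 further genes, and leaving out that set or each cow. The fits of genotype and interaction in liver without cow 3847 and without cow 426 were added after seeing the data. Sequences were not analysed here, and some genes of the lists and members are not reported here.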

Additional observations from a re-analysis of the deposited data

Results flagged for a closer look

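In 30 groups of 8 libraries or cows examined, 7 held a value far from the other 7 by Dixon's criterion. For independent, normally distributed groups chance alone gives about 1 in 20. The groups here share cows, and many hold CPM of genes picked by small p, so that rate is not a fair yardstick for them. In liver, Fert+ cow 3847 had a median member difference of 2.09 (LP minus EL) and 2.10 (ML minus EL) in log2(CPM + 1), above the other Fert+ cows. CD74 reached 1633 CPM in the ML liver library of Fert- cow 426. CHRNE reached 41.5 CPM in the LP muscle library of Fert+ cow 3445, and ECHDC2 reached 38.2 CPM in that of Fert+ cow 33. SFRP2 in LP liver stood at 1.18 CPM in Fert+ cow 756 and at 8.57 CPM in Fert- cow 419.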

How the results depend on the processing

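Of the 100 members, 60 were retained with TMM-scaled library sizes and 64 with the median over cows, and between 78 and 94 when each cow was left out in turn. Without the set of 13 libraries that counted 19 further genes, 74 were retained. All 4 differences stayed above 0 in 99 members with TMM, where SFRP2 fell under the CPM floor, in 94 with the median over cows and in 99 without that set. The TMM-retained members included the first 25. Between genotypes DESeq2 called 2 liver genes at LP, 13 at EL and 63 at ML. For muscle it called 26 at LP (1 member), 123 at EL (4 members) and 11 at ML (2 members). The 1 gene called by edgeR in muscle at EL became 0 with the set of 13 libraries as a term and without that set. Against LP in liver, 103 non-members were lower and 264 higher at EL. DESeq2 gave 178 and 413, library totals alone 54 lower, and leaving out the set of 13 libraries 2 and 1. With the replicate block, which pairs libraries by cow, 137 were higher, and the held-out genes lower at EL in Fert+ liver against LP went from 3 to 10. Library totals alone gave 1 for the latter, 1844 in place of 2785 higher in liver against ML, and 808 lower and 7265 higher in muscle against LP (3015 and 3665 with TMM), 939 and 7602 against ML (3458 and 3882 with TMM). The held-out genes lower in Fert- muscle against LP went from 78 to 45 with library totals alone. In the Fert+ liver fit against LP all genes lower at EL went from 180 to 304 with the block. Over all non-members in the time fits, and over all or chosen genes in the held-out fits, the block moved no other such count by more than 1.5 times. Counts within some gene lists moved by more, such as chaperone genes higher at EL in liver against LP, from 8 to 0. The causes were not tested. Genotypes are different cows, so no block was possible for the genotype comparison.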

Other observations

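Oxidative phosphorylation genes fell in muscle but hardly in liver (edgeR quasi-likelihood test, non-members). Of 33 tested in liver 0 were down-regulated at EL against LP and 1 against ML, with 2 and 4 up-regulated. In muscle 30 and 29 were down-regulated. Without the TMM scaling of the test, their muscle CPM summed to medians of 9276 at LP, 8287 at EL and 9660 at ML. Of 8 collagen and matrix genes tested, 0 were down-regulated in liver against LP and 5 against ML, and 7 and 6 in muscle. In CPM these 8 summed in muscle to medians of 582 at LP, 478 at EL and 438 at ML, so without TMM the EL sum was not the lowest.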
